A study of Mus musculus with 2 samples.

Results

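Imprinted genes are transcribed mainly from the allele inherited from 1 parent, under methylation marks that are set in the germ line and kept at imprinting control regions. The expression of 10 such genes was compared between mouse embryonic stem cells that carry a hairpin against Dab2 and control cells. The genes were Igf2, H19, Igf2r, Dlk1, Meg3, Rian, Gnas, Peg3, Mest and Cdkn1c, listed with earlier results of these data in view, and every probe set annotated to only 1 of them was taken. Of the 10 genes, 9 had such probe sets, 22 in all, out of 12393 genes and 20380 single-gene probe sets on the array. Igf2 was 2.39-fold lower in shDAB2 cells, Rian 1.66-fold and Meg3 1.59-fold higher, and the other 6 differed by less than 1.5-fold. H19 had no such probe set. A probe set annotated to both Mir675 and H19 read 7.30 in shDAB2 cells and 7.50 in vector cells, and it cannot be assigned to either gene.

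E14tg2a, a mouse embryonic stem cell line, had been stably transfected with a plasmid encoding the hairpin shDAB2 or with the vector control plasmid. Clone 4 of the hairpin line and clone 9 of the vector line were each hybridised to 1 Affymetrix mouse 430A array. Both grew in GMEM medium containing LIF (1000 U/ml), which holds them undifferentiated, and 10% FBS. Each group is thus 1 clone and 1 array, no test across samples exists, and a difference between clones cannot be told apart from a difference caused by the hairpin. All values are RMA expression values on the log2 scale, single measurements without replicates. A difference is shDAB2 cells minus vector cells, so negative values are lower with the hairpin. The arrays measure RNA of both alleles together, so the parental allele given for a gene is textbook knowledge and not a measurement here.

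The error that can be given is that between probe sets of 1 gene. Over 2502 genes it had an SD of 0.11 (log2) for the difference on 1 probe set, and it covers neither cultures nor clones. Beside each member stands a second measure, the SD of the differences of the 500 single-gene probe sets nearest to it in signal. A floor was set at the median of all values, 6.62, and a gene was above it when the higher of its 2 values reached it. Of all genes, 7269 were above the floor, with median difference 0.0006 and an SD of 0.22. Dab2 itself was dim, at 6.33 in shDAB2 cells and 6.64 in vector cells on its brightest probe set, a difference of -0.31. Its other probe sets differed by -0.05 and -0.01.

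The markers of embryonic stem cells were present: 12 of 12 lay above the floor, with a summed linear signal of 11780 in shDAB2 cells and 11548 in vector cells. Markers of other cell types were mostly dim. The sums given count all measured genes of a list, also those below the floor. Above the floor were 2 of 12 primitive endoderm genes (Gata4, Gata6 and Sox17 were below), 4 of 12 fibroblast genes (Col1a1, Col1a2 and Col3a1 were below), 4 of 10 mesoderm genes, 5 of 8 neuroectoderm genes and 7 of 12 trophectoderm genes (Cdx2, Eomes and Elf5 were below). The trophectoderm sum was 3363 in shDAB2 cells and 5927 in vector cells, and the fibroblast sum 1992 and 2858. The primitive endoderm sum was 1048 and 1024, the mesoderm sum 1132 and 1245, and the neuroectoderm sum 1772 and 1584. The trophectoderm, fibroblast and mesoderm sums thus moved in the direction of Igf2, and their part in its difference was not tested. A few bright genes make up most of the trophectoderm and fibroblast gaps. The keratin genes Krt18, Krt8 and Krt19 account for 2426 of the 2564 units of the trophectoderm list. Tagln and Fn1, of the contractile apparatus and the matrix, account for 793 of the 866 of the fibroblast list. In the mesoderm list Bmp4 differed by -0.53, and the other genes above the floor by -0.13 to 0.08. In the neuroectoderm list Nefl differed by 0.86, and the next largest difference was 0.28 (Nefm). The marker genes named here were picked after their values were seen. In bulk samples, fewer cells of a type and less RNA per cell cannot be told apart.

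Igf2, a fetal growth factor expressed from the paternal allele, and H19, a maternally expressed noncoding RNA, share enhancers and a control region that the insulator protein CTCF binds on the maternal allele. Dlk1, which encodes a membrane protein related to Notch ligands, is paternally expressed, while its neighbours Meg3 and Rian give long noncoding RNAs from the maternal allele and host microRNAs and small nucleolar RNAs. Expression of the Meg3 cluster is known to vary between pluripotent stem cell lines. Igf2r encodes the receptor that carries IGF2 to lysosomes for breakdown, and Cdkn1c a cyclin-dependent kinase inhibitor that restrains growth.

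The start regions of the members that differed most, and of Peg3 for comparison, are shown as background. Whether a difference arises at a printed start was not tested. They come from the RefSeq promoter table of GRCm38.p6, which held 17 start sites of 8 members (Igf2, Igf2r, Dlk1, Meg3, Rian, Gnas, Peg3 and Mest). Each runs 5′ to 3′ on the gene's own strand from 250 bases before to 50 after an annotated start. Capitals mark matches on either strand to TGCCGC (the hexamer bound by the imprint-keeping protein ZFP57), TGACGTCA (the cAMP response element) or TATAAA (the TATA box). Igf2 has 4 annotated starts, and the one printed is the most downstream; which start these cells used is not known from the array. The regions are chr12:109540746-109541045 on the plus strand for Meg3, chr12:109603695-109603994 on the plus strand for Rian, chr7:142657447-142657746 on the minus strand for Igf2 and chr7:6730370-6730669 on the minus strand for Peg3.
Meg3: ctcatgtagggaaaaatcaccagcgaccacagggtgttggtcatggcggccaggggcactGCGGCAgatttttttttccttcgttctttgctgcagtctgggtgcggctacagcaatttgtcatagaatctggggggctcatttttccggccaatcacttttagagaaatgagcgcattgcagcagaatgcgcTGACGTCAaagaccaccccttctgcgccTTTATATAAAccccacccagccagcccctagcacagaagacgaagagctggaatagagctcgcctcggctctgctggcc
Rian: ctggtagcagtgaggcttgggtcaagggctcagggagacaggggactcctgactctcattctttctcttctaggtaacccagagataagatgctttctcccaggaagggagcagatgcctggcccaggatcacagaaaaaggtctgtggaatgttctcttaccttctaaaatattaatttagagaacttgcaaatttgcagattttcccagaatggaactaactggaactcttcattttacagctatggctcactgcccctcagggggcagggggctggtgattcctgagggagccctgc
Igf2: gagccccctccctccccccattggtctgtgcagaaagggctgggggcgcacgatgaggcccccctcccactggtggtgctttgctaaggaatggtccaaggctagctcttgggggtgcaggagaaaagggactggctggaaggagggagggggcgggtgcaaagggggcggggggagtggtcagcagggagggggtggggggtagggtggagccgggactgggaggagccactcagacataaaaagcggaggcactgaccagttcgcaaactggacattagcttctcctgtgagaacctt
Peg3: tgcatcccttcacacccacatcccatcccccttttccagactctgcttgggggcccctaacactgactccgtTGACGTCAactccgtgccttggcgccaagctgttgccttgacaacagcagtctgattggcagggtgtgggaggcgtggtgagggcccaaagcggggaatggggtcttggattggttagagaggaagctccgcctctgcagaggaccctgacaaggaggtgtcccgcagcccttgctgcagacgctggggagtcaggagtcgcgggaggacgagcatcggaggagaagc

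Meg3 has 2 annotated starts, and the upstream one is printed. That Meg3 region held 13 CG dinucleotides and matched all of the motifs searched. Its TGCCGC match began 190 bases before the start, its TGACGTCA 57 bases before, and its 2 overlapping TATAAA matches, on opposite strands, from 29 bases before. The other Meg3 start region held 1 CG dinucleotide and no match, and the Rian region 0 CG dinucleotides and no match. Peg3 also held TGACGTCA, 178 bases before its start, with 13 CG dinucleotides. The printed Igf2 region held 7 CG dinucleotides and no match, while another Igf2 start held 1 TGCCGC. Mest held 2 TGCCGC matches at each of 2 overlapping start regions, Gnas held TATAAA at 3 of its 4, and Dlk1 and Igf2r held no match, with 9 and 34 CG dinucleotides. Over 32851 promoters of the same length, 11.6% held TGCCGC, 1.79% TGACGTCA and 13.6% TATAAA, and the median CG count was 7. A match is a description of the letters only, and no match says only that these letters are not in the window.

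Several members also contain microRNA hairpins, which these arrays did not measure in mature form. By the RefSeq miRNA table of GRCm38.p6 the span of Rian holds 3 hairpins, that of Meg3 2 and those of Igf2, Mest and H19 1 each. The mature sequences below come from the genes that differed by at least 1.5-fold, with the seed (bases 2 to 8) in capitals; no pair of them shares a seed.
mmu-miR-483-3p (in Igf2): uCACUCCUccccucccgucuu
mmu-miR-770-5p (in Meg3): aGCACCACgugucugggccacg
mmu-miR-341-3p (in Rian): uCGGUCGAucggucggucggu
mmu-miR-370-3p (in Rian): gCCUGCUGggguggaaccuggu

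**Figure D1:**
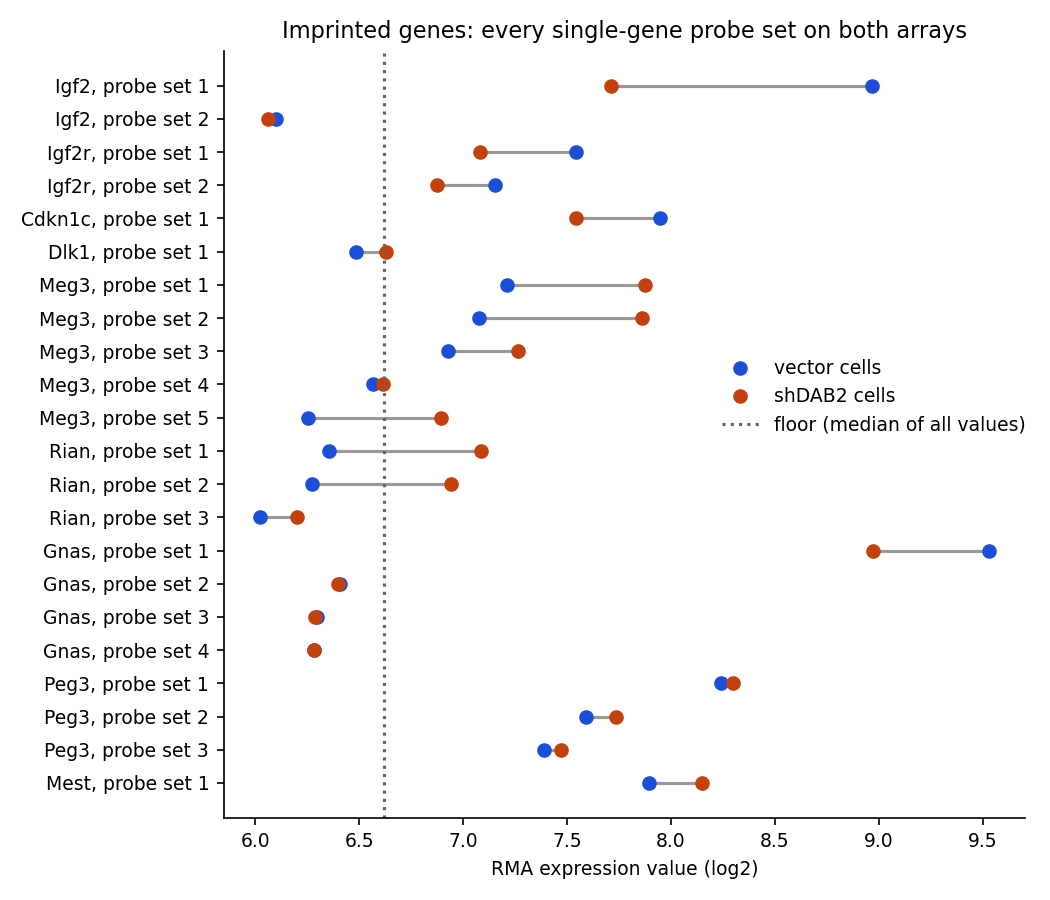
RMA expression value (log2, x axis) of each of the 22 single-gene probe sets on the vector array (blue) and the shDAB2 array (orange), with probe sets of a gene numbered from the brightest. The dotted line is the floor of 6.62. Igf2 is far lower in shDAB2 cells on its bright probe set only. All Meg3 and Rian probe sets are higher in shDAB2 cells, probe set 4 of Meg3 by only 0.05.

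By size, 1 of the 9 measured members was at least 1.5-fold lower in shDAB2 cells (Igf2) and 2 were at least 1.5-fold higher (Rian and Meg3). Among all genes above the floor 1.62% were lower by that much and 0.578% higher. The members were listed with these differences in view, so nothing is read from the shares. At 2-fold 1 was lower (Igf2) and 0 were higher, where 0.179% and 0.0275% of all genes were. At 1.2-fold 4 were lower (Igf2, Gnas, Igf2r and Cdkn1c) and 2 higher, where 8.8% and 7.97% of all genes were. The remaining 6 members differed by less than 1.5-fold: Gnas, Igf2r and Cdkn1c were lower, and Mest, Dlk1 and Peg3 higher. The median over the 9 was 0.06 and the mean -0.09.

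Igf2 read 8.97 in vector cells and 7.71 in shDAB2 cells on its brighter probe set. The difference of -1.26 is 2.39-fold lower, where probe sets of similar signal had an SD of 0.28. It stood 6 places from the lowest among the 7269 genes. The dimmer Igf2 probe set read 6.10 and 6.06, a difference of -0.04, and lay below the floor on both arrays at a signal above only 9.13% of the probe sets. That difference is within the SD of 0.065 at its signal, so the Igf2 result rests on 1 of 2 probe sets. Next to Igf2 in the order of differences stood Sars (-1.36), Psat1 (-1.33) and Krt18 (-1.32) on the lower side and Klf5 (-1.25), Acta1 (-1.19) and Anxa3 (-1.12) on the other. This likeness is in 1 difference over 2 arrays.

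No measured gene around Igf2 showed a difference of that size. All except Mrpl23 read 6.95 or less, against a lowest array value of 5.65. That leaves little room for such a fall. Mrpl23, a mitochondrial ribosomal protein gene next to H19, read 8.59 in vector cells and 8.29 in shDAB2 cells, a difference of -0.30. The insulin gene Ins2, on the other side, differed by -0.003, and Igf2os, an antisense transcript of Igf2, by -0.04. Farther out, the troponin genes Tnni2 and Tnnt3 differed by 0.12 and -0.01, Syt8 by 0.06 and Lsp1 by 0.10. Th, which encodes tyrosine hydroxylase, differed by -0.02, Ascl2 by -0.03, Tspan32 by -0.03 and R74862 by 0.13. Of these 11 neighbours 5 were above the floor, 2 higher and 3 lower, and 0 passed 1.5-fold. The median of the 549 genes of chromosome 7 above the floor was -0.01.

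Rian read 6.36 in vector cells and 7.09 in shDAB2 cells, 0.73 higher or 1.66-fold, against an SD of 0.13 at similar signal. Its second probe set went from 6.27 to 6.94, a difference of 0.67, and its dimmest, below the floor on both arrays, from 6.02 to 6.20. In vector cells all Rian probe sets lay below the floor, and in shDAB2 cells 2 of 3 lay above it. RMA shrinks differences of dim probe sets, while Rian was listed with its value in view. The true size of its fold is thus not known from these values. Rian stood 14 places from the highest of the 7269 genes. Its neighbours in that order were Dctpp1 (0.71), Spink1 (0.72) and Hes6 (0.72) on the lower side and Nop16 (0.75), Ifitm3 (0.76) and Mrpl34 (0.76) on the other.

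Meg3 was higher in shDAB2 cells on 5 of 5 probe sets. The brightest read 7.21 in vector cells and 7.88 in shDAB2 cells, a difference of 0.67 or 1.59-fold, against an SD of 0.21 at similar signal. Probe set 2 in order of brightness differed by 0.78 (7.07 and 7.86), probe set 3 by 0.34 (6.93 and 7.27) and probe set 5 by 0.64 (6.26 and 6.89). Probe set 5 passed the floor only through shDAB2 cells. Probe set 4, just below the floor on both arrays, read 6.56 and 6.61, a difference of only 0.05. That is within the SD of 0.11 at its signal, so the sign of probe set 4 carries no weight. It is also the only Meg3 probe set whose name carries no _s_at, _x_at or _a_at ending, the endings for probes that may match several transcripts or genes. The second and the dimmest Rian probe sets have no such ending either. Meg3 stood 24 places from the highest.

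Dlk1, the paternally expressed protein gene of the same cluster, read 6.48 in vector cells and 6.63 in shDAB2 cells. The difference of 0.14 is close to the SD of 0.10 at similar signal, and the gene passed the floor of 6.62 only through the higher of its values. Rian, too, passed the floor only through shDAB2 cells, so neither the shared direction of the cluster nor an order of sizes within it is read from these values. Genes outside the cluster were close to 0 or divided in sign. The nearest measured ones, Wars and Ppp2r5c, lay 558 kb and 785 kb from the members, so none is directly adjacent. The transcription factor gene Yy1 differed by 0.24, Wars by -0.04, Slc25a29 by 0.01, Slc25a47 by -0.14 and Degs2 by -0.01 on one side. On the other side Ppp2r5c differed by 0.09, the dynein heavy chain gene Dync1h1 by -0.37, the chaperone gene Hsp90aa1 by -0.01, Wdr20 by 0.10 and 1700001K19Rik by -0.08. Of these 10 neighbours 6 were above the floor, 3 higher and 3 lower, and 0 passed 1.5-fold. The median of the 236 genes of chromosome 12 above the floor was 0.06.

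**Figure D2:**
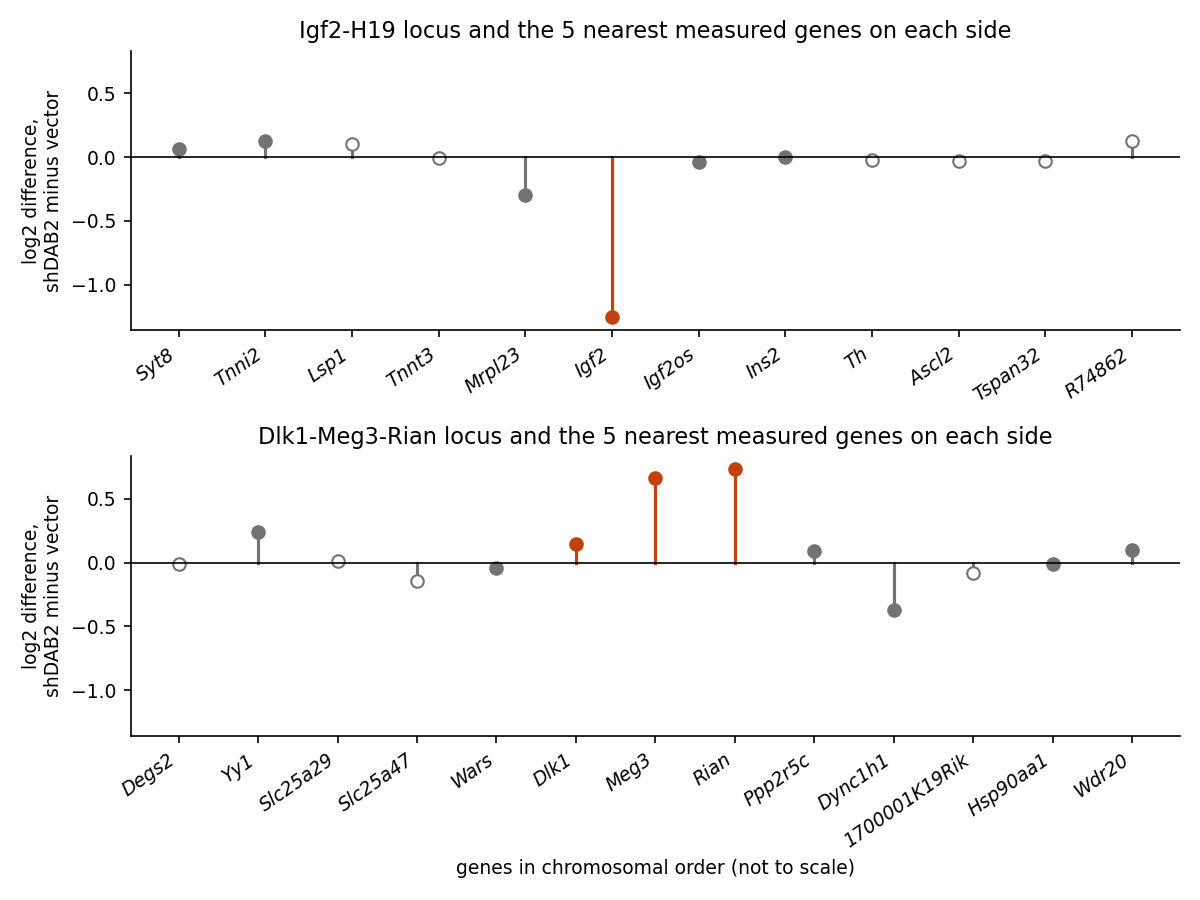
Log2 difference (y axis) of Igf2 (top, orange) and of Dlk1, Meg3 and Rian (bottom, orange) and of the nearest measured genes on each side (grey), in chromosomal order by gene start and not to scale; H19 is not drawn because it has no single-gene probe set. Open symbols lay below the floor on both arrays. The difference of -1.26 at Igf2 and those of 0.67 and 0.73 at Meg3 and Rian stand beside neighbours between -0.37 and 0.24. All Igf2 neighbours except Mrpl23 read 6.95 or less, which leaves little room for a fall like that of Igf2.

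Igf2r, the IGF2-clearing receptor, is maternally expressed in most mouse tissues; in undifferentiated embryonic stem cells both alleles are known to be used. It read 7.54 in vector cells and 7.08 in shDAB2 cells, a difference of -0.46 against an SD of 0.20 at similar signal, and 7.16 and 6.87 on the second probe set, a difference of -0.28. Both probe sets were above the floor and both lower. Airn, the paternally expressed noncoding RNA that overlaps Igf2r and silences it in cis, lay below the floor at 6.30 and 6.22. Slc22a2, a transporter gene of the same cluster, was below it too and differed by -0.14.

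Cdkn1c read 7.95 in vector cells and 7.54 in shDAB2 cells on its only probe set, a difference of -0.41 against an SD of 0.23 at similar signal. The other maternally expressed genes of its cluster above the floor were also lower: Cd81, a tetraspanin gene, differed by -0.26, the placental growth regulator Phlda2 by -0.08, Tssc4 by -0.07 and the transporter gene Slc22a18 by -0.07. So 5 of 5 genes of this cluster above the floor were lower on their brightest probe set, with a median of -0.08. Among all genes above the floor 49.3% were lower. Slc22a18 gave 0.006 on its second probe set, and Cdkn1c was listed with its value in view, so nothing is read from the count. Nap1l4, a nucleosome assembly gene beyond Phlda2 that is not in the imprinted lists, was higher by 0.14; it was chosen for mention once its value was known. Among the 5 cluster genes, the differences other than those of Cdkn1c and Cd81 were within the probe-set SD of 0.11. Among the 10 nearest measured genes of Cdkn1c, Cars, a tRNA synthetase gene that lies 4 measured genes away, differed by -1.03. Over all loci 72 neighbouring genes were measured, and 38 of them were above the floor. Of these 38, Cars and Podxl (-0.65, on the side of Mest) were the 2 that passed 1.5-fold, both lower. Among all genes above the floor 1.62% were lower by that much and 0.578% higher. Mrpl18, on the side of Igf2r, was higher by 0.58, just short of 1.5-fold. Cars, Podxl and Mrpl18 are named after their values were seen.

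Gnas encodes the stimulatory G protein alpha subunit, and its alternative transcripts differ in the allele they are expressed from. Its brightest probe set read 9.53 in vector cells and 8.97 in shDAB2 cells, a difference of -0.56 or 1.47-fold, just short of 1.5-fold, against an SD of 0.31 at similar signal. The other 3 Gnas probe sets lay below the floor at 6.28 to 6.41 and differed by -0.01, -0.01 and 0.00. The annotation does not say which transcript each detects.

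Peg3 and Mest, both paternally expressed, differed little. Peg3, a zinc finger gene, read 8.24 in vector cells and 8.30 in shDAB2 cells, a difference of 0.06, and its other probe sets differed by 0.14 and 0.08. All 3 were above the floor and below the SD of 0.20 to 0.29 at their signal. Mest, which encodes a protein of the hydrolase fold, read 7.90 and 8.15, a difference of 0.25 that is no larger than the SD of 0.25 at its signal. The genes beside Peg3 that are imprinted, Zim1 (-0.04), Usp29 (0.01) and Zim3 (0.01), lay below the floor.

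**Figure D3:**
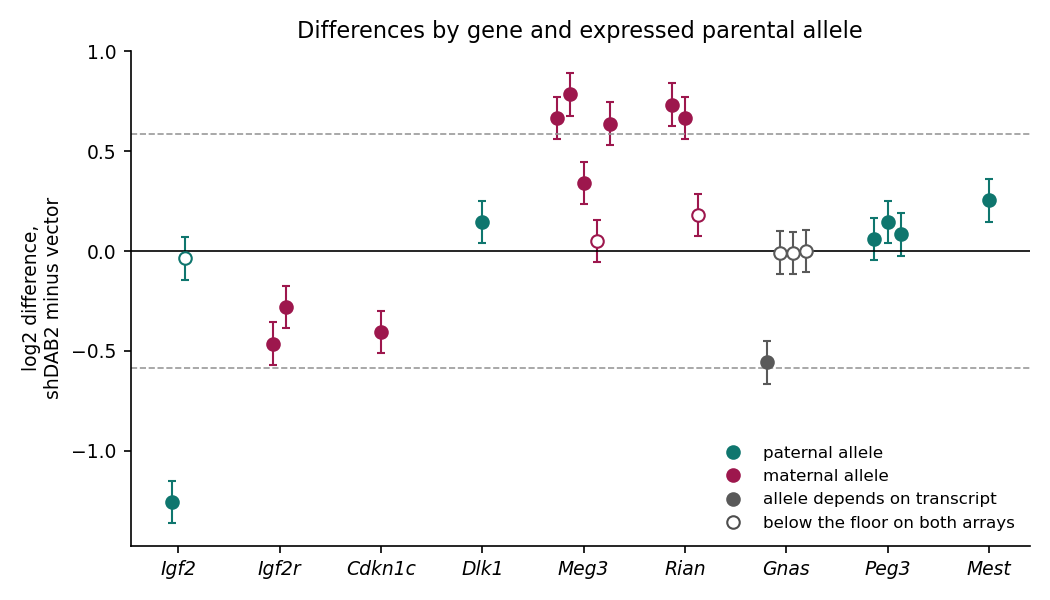
Log2 difference (y axis) of each probe set of the 9 measured genes, coloured by expressed parental allele; error bars are ± the probe-set SD of 0.11, dashed lines mark 1.5-fold, and open symbols lay below the floor on both arrays. Both alleles have genes above and below 0, while the probe sets of 1 gene keep to 1 side or lie near 0.

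Grouped by expressed allele, the ranges of the members overlapped. The 4 paternally expressed genes ran from -1.26 (Igf2) to 0.25 (Mest), with median 0.10 and mean -0.20. The 4 measured maternally expressed genes ran from -0.46 (Igf2r) to 0.73 (Rian), with median 0.13 and mean 0.13. Igf2r is counted here by its allele in most mouse tissues, although embryonic stem cells are known to use both. The next lowest of this group was Cdkn1c at -0.41. The values from -0.46 to 0.25 lie in both ranges. By locus, the Dlk1-Meg3-Rian cluster was the only locus with more than 1 measured member, so how far members of a locus vary together cannot be compared between loci.

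**Figure D4:**
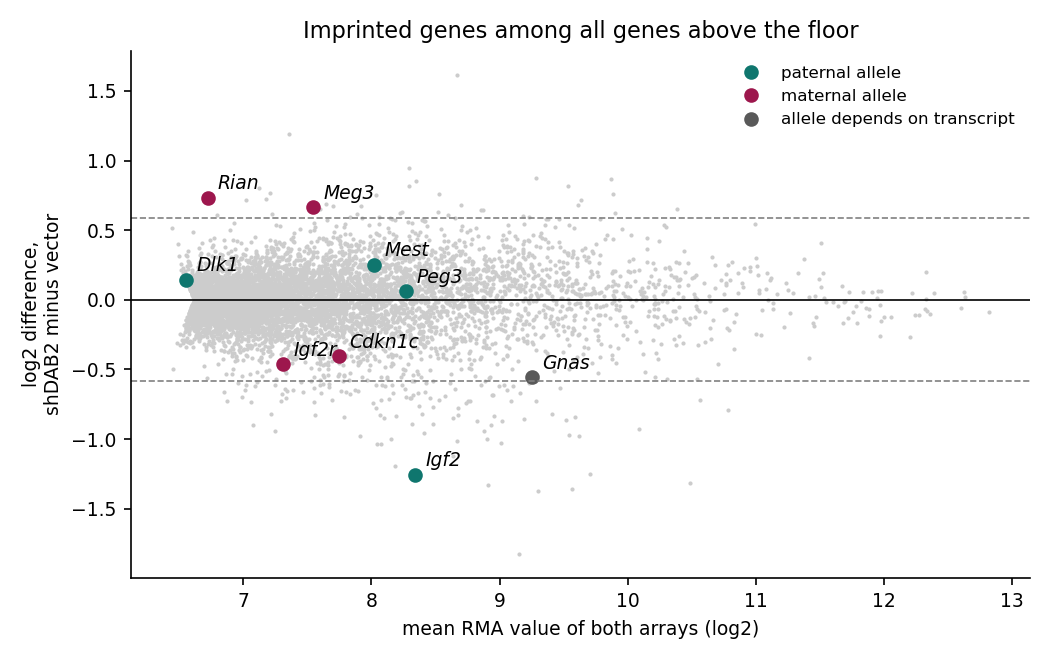
Log2 difference (y axis) against mean RMA value of both arrays (log2, x axis) for the 7269 genes above the floor (grey) and the 9 measured imprinted genes (coloured by expressed allele); dashed lines mark 1.5-fold. Igf2 at -1.26 and Rian and Meg3 at 0.73 and 0.67 lie at the edges of the cloud, and Peg3 at 0.06 and Dlk1 at 0.14 lie within it.

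Other imprinted genes were taken from 2 lists by expressed allele. The allele is the listed one, and whether these embryonic stem cells use only that allele was not measured. Of 51 listed, 37 were measured and 19 were above the floor; 5 had a higher and 14 a lower value in shDAB2 cells, the median was -0.07 and 0 passed 1.5-fold. The shares over all 7269 genes were 49.3% lower and 50% higher, and with 1.62% and 0.578% past 1.5-fold in these directions, 0 of 19 is no result about these genes. Among the 11 paternally expressed, 4 stood higher and 7 lower (median -0.04). Sgce, a sarcoglycan gene, read 7.58 in vector cells and 7.07 in shDAB2 cells (-0.51), and its neighbour Peg10, a retrotransposon-derived gene, 6.75 and 6.47 (-0.28). Peg10 passed the floor only through vector cells, so its direction is not read. Sfmbt2, a Polycomb-related gene, differed by -0.47. On the higher side stood Plagl1, which encodes a zinc finger regulator of other imprinted genes, at 0.21 (-0.03 on its second probe set) and Ndn at 0.20 (0.02 on its second). The rest were within the probe-set SD: Impact (-0.07), the amino acid transporter gene Slc38a4 (-0.05), Nnat (-0.04), Mcts2 (0.07), Snrpn (0.04) and Ins2 (-0.003).

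Among the 8 other maternally expressed genes above the floor 1 stood higher and 7 lower (median -0.08). Grb10, an adaptor that dampens insulin and IGF receptor signalling, read 8.13 in vector cells and 7.76 in shDAB2 cells, a difference of -0.37, with -0.28 on its second probe set. Next stood Cd81 (-0.26) and H13 (-0.25), a signal peptide peptidase gene whose second probe set gave 0.11. Phlda2 (-0.08), Tssc4 (-0.07), Commd1 (-0.07), Slc22a18 (-0.07) and the ubiquitin ligase gene Ube3a (0.02) were within the probe-set SD. The second probe sets of Commd1, Slc22a18 and Ube3a read higher, by 0.09, 0.006 and 0.08. The count by direction thus depends on the probe set taken. The genes below the floor, 8 paternally and 10 maternally expressed, were too dim to compare.

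**Figure D5:**
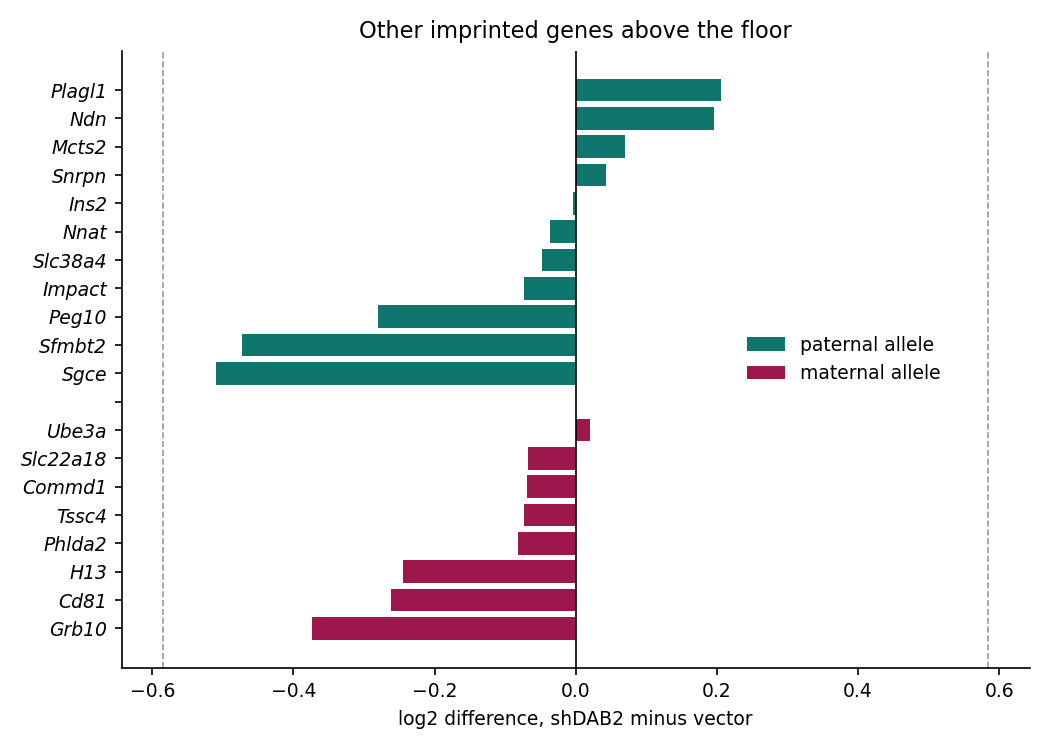
Log2 difference (x axis, bars from 0) of the 19 other listed imprinted genes above the floor, paternally expressed (green) above maternally expressed (purple); dashed lines mark 1.5-fold. No bar reaches them; the longest are Sgce at -0.51, Sfmbt2 at -0.47 and Grb10 at -0.37.

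Genes of IGF signalling, the pathway that Igf2 feeds, went in both directions. Above the floor were 14, of which 6 had a higher and 8 a lower value in shDAB2 cells (median -0.04). Over all genes above the floor the shares were 50% and 49.3%, so this count is no result about the pathway. In the list 1 gene was at least 1.5-fold higher and 0 were lower by that much, where 0.578% and 1.62% of all genes were. That gene was Igfbp2, which encodes an IGF-binding protein, at 8.93 in vector cells and 9.53 in shDAB2 cells (0.60). Igfbp4 (-0.24) and Igfbp3 (-0.23) of the same family were lower. Igf2bp3, an RNA-binding protein gene of the family that binds Igf2 transcripts, differed by -0.29, but by 0.12 on its second probe set.

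Genes of imprint maintenance and DNA methylation were mostly higher. Above the floor were 17, of which 14 had a higher and 3 a lower value in shDAB2 cells (median 0.26). Among all genes above the floor 50% were higher. Of the higher ones, Zfp57 (0.06), Zfp445 (0.06), Tet1 (0.08) and Arid4b (0.02) were within the probe-set SD of 0.11. Setdb1 (0.26) and Yy1 (0.24) gave only 0.01 and 0.04 on their second probe sets, while Cbx5 (-0.03) gave 0.49 on its second. These genes were named after their values were seen. Only Dnmt3a, a methyltransferase that sets new methylation, passed 1.5-fold, at 7.30 in vector cells and 7.99 in shDAB2 cells (0.69, and 0.67 on its second probe set). Ctcf, the insulator protein gene, differed by 0.47 (0.12 on its second probe set), the methyltransferase gene Dnmt3b by 0.40 (0.49) and Dppa3, whose protein guards imprints in the early embryo, by 0.39. Not all methyltransferase genes were higher: Dnmt3l, a catalytically inactive partner of DNMT3A, differed by -0.32 and the maintenance enzyme gene Dnmt1 by -0.26 (-0.08 on its second probe set), both named after their values were seen. Whether methylation at any imprinting control region differed was not measured.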

How the data were processed

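RNA of 1 shDAB2 and 1 vector clone was measured on 1 array each, grouped by sample title. The deposited log2 values were made by the authors with RMA, per the submitters' processing notes; its version is not given in the sources used here, nor is it known which arrays were normalized together. The log base was inferred from the range, 5.65 to 12.86. Probe sets took names from the platform annotation (20380 with 1 gene, 691 with several, 1555 unnamed here), and 20351 of the first matched RefSeq gene IDs of GRCm38.p6, used for gene order. The brightest single-gene probe set stood for a gene. With 1 array per group no p-value is given, and the number of arrays limits the precision. A call is a 1.5-fold difference. The members, lists and rules were chosen with earlier results of these data known. Named genes are all members, other imprinted genes above the floor, and up to 4 genes with the largest difference of the IGF signalling and imprint maintenance lists. Also named are measured neighbours (5 on each side) of Igf2-H19 and Dlk1-Meg3-Rian, and 3 rank neighbours each side of Igf2 and Rian. Cell type marker lists are given by counts and sums, with some marker genes named after their values were seen. The script that computes differences and fold counts was checked on simulated data. Alternatives used limma 3.58.1 in R 4.3.3; other steps ran in Python 3.11.15.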

Additional observations from a re-analysis of the deposited data

How the results depend on the processing

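No paired analysis was possible because each group holds 1 array. Cyclic loess, which gave 2 members at least 1.5-fold lower (Igf2 and Gnas), median centring and quantile normalization moved no member by more than the probe-set SD of 0.11. The choice of probe set did: the mean of all probe sets gave -0.65 for Igf2, 0.50 for Meg3, 0.53 for Rian and -0.14 for Gnas, with 0 members at least 1.5-fold higher. The second brightest probe set gave -0.037 for Igf2, -0.28 for Igf2r, 0.78 for Meg3 and -0.0079 for Gnas, with 0 members 1.5-fold lower; the Igf2 and Gnas values come from probe sets below the floor and within the SD at their signal, so their signs carry no weight. Without _s_at, _x_at and _a_at probe sets Dlk1 had no value, Meg3 was 0.050 and Gnas -0.0079, both on probe sets below the floor, 1 member was 1.5-fold higher and the maternal median was -0.18. Counting the probe set annotated to both Mir675 and H19, at -0.20, for H19 made the maternal median -0.20. A floor at the 75th percentile, 7.33, left 1 member 1.5-fold higher, because it removes Rian. A 2-fold limit left 0 higher, and a 1.2-fold limit gave 4 lower. The mean in place of the median made the paternal value -0.20. The signs of the group medians thus depend on the members and probe sets counted, and the dim probe sets limit what can be compared. The cause of the moves was not tested beyond this.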

Other observations

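Snrpn, which encodes a splicing protein and is paternally expressed, shares its locus with Snurf, and 4 probe sets are annotated to both genes. They were bright, at 8.87 to 9.73 in the vector clone and 8.99 to 9.81 in the shDAB2 clone, and differed by 0.22, 0.004, 0.12 and 0.12. All 4 were higher in the shDAB2 clone, as was the single-gene probe set of Snrpn at 0.04, and none passed 1.5-fold. Of all genes above the floor 50% were higher, and 0.578% by at least 1.5-fold. The differences of 0.004 and 0.04 are within the probe-set SD of 0.11. Because the 4 probe sets are annotated to the same genes, nothing is read from the count.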
